A study of Mus musculus with 15 samples.

Results

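Tight junction genes were described here across sorted brain vascular cells and aorta explants of mice that lack Notch3 or carry 1 intact copy of it. The 8 genes were Cldn5, Cldn12, Ocln, Jam2, F11r, Esam, Tjp1 and Cgn. Their members on the array were the 16 probe sets annotated to 1 of these symbols alone, of 45101 in the table, which names 18193 genes. Probe sets annotated to several symbols were not assigned to any gene. A probe set is a group of probes that read 1 transcript together, and its value is a linear fluorescence intensity. Expression was measured on 15 Affymetrix arrays, and all mice were C57BL6J males aged 10 to 12 weeks. Brain cells sorted by FACS and named SMC/pericyte cells in the labels came from 5 Notch3 -/- mice and 4 Notch3 +/- mice. Aorta explants gave 3 Notch3 -/- arrays and 3 Notch3 +/- arrays. Notch3 encodes a Notch receptor of vascular smooth muscle cells and pericytes, and no wild-type array was analysed here, so a genotype difference is between no copy and 1 copy. The labels do not tell whether each aorta array stands for its own mouse, so an aorta p-value compares a difference only with the spread of these samples, which may be technical.

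Tight junctions seal the cleft between neighbouring cells and are most developed in epithelia and in the endothelium of brain vessels, where they form the physical part of the blood-brain barrier. Claudins and occludin span the membrane and meet their partners on the next cell in continuous strands. Immunoglobulin-type adhesion molecules such as the JAM proteins and ESAM lie beside the strands, and cytoplasmic scaffolds such as ZO-1 and cingulin tie them to actin. Smooth muscle cells and pericytes lie outside the endothelium and are not known for such strands.

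The brain arrays carried endothelial as well as mural signal, so the brain values below are those of mixed cells. The summed intensity of 24 endothelial markers ran from 77225 to 95416 in brain Notch3 -/- arrays and from 73484 to 87240 in brain Notch3 +/- arrays. In aorta the same sum ran from 8040 to 8915 in Notch3 -/- arrays and from 7781 to 9443 in Notch3 +/- arrays. Flt1, an endothelial VEGF receptor, averaged 4472 ± 658 (SD, n = 5) in brain Notch3 -/- cells, 4629 ± 931 (n = 4) in brain Notch3 +/- cells, 43.2 ± 13.6 (n = 3) in aorta Notch3 -/- and 64.8 ± 24.9 (n = 3) in aorta Notch3 +/-. Cdh5, the cadherin of endothelial junctions, averaged 287 ± 60.4, 266 ± 53.9, 126 ± 11.8 and 134 ± 14 in the same order of groups. Pecam1, 1 of the 2 endothelial markers that were lower in brain while 22 were higher, averaged 90 ± 18.8, 99.5 ± 24.1, 396 ± 68.4 and 378 ± 47.3. The endothelial sum leans on bright genes such as Slco1a4, at 18528 ± 2422 in brain Notch3 -/- cells. The summed intensity of 16 mural markers, Notch3 among them, was 41594 to 51474 in brain Notch3 -/- arrays, below the 58118 to 102344 of brain Notch3 +/- arrays. The value of 102344 was that of replicate H alone, while replicates E, G and I had 58118, 69271 and 63075. Replicate H also correlated least with the other arrays of its group. The mural sum was 58789 to 64325 in aorta Notch3 -/- and 58243 to 61284 in aorta Notch3 +/- arrays. Astrocyte, oligodendrocyte, choroid plexus, and microglia and macrophage marker sums were also higher in all brain arrays than in all aorta arrays. The fibroblast marker sum was lower in all brain arrays than in all aorta arrays. Notch3 itself was 210.0 ± 37 in brain Notch3 -/- cells against 2616 ± 222 in brain Notch3 +/- cells, and 108 ± 34.1 in aorta Notch3 -/- against 401 ± 47.2 in aorta Notch3 +/-, and every Notch3 -/- array was below every Notch3 +/- array of its tissue. In samples made of many cells, fewer cells of a type and less RNA per cell cannot be told apart. How far the endothelial share sets the levels of the tight junction genes was not tested. The endothelial marker level served as a covariate only in the genotype comparisons within a tissue.

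**Figure D1:**
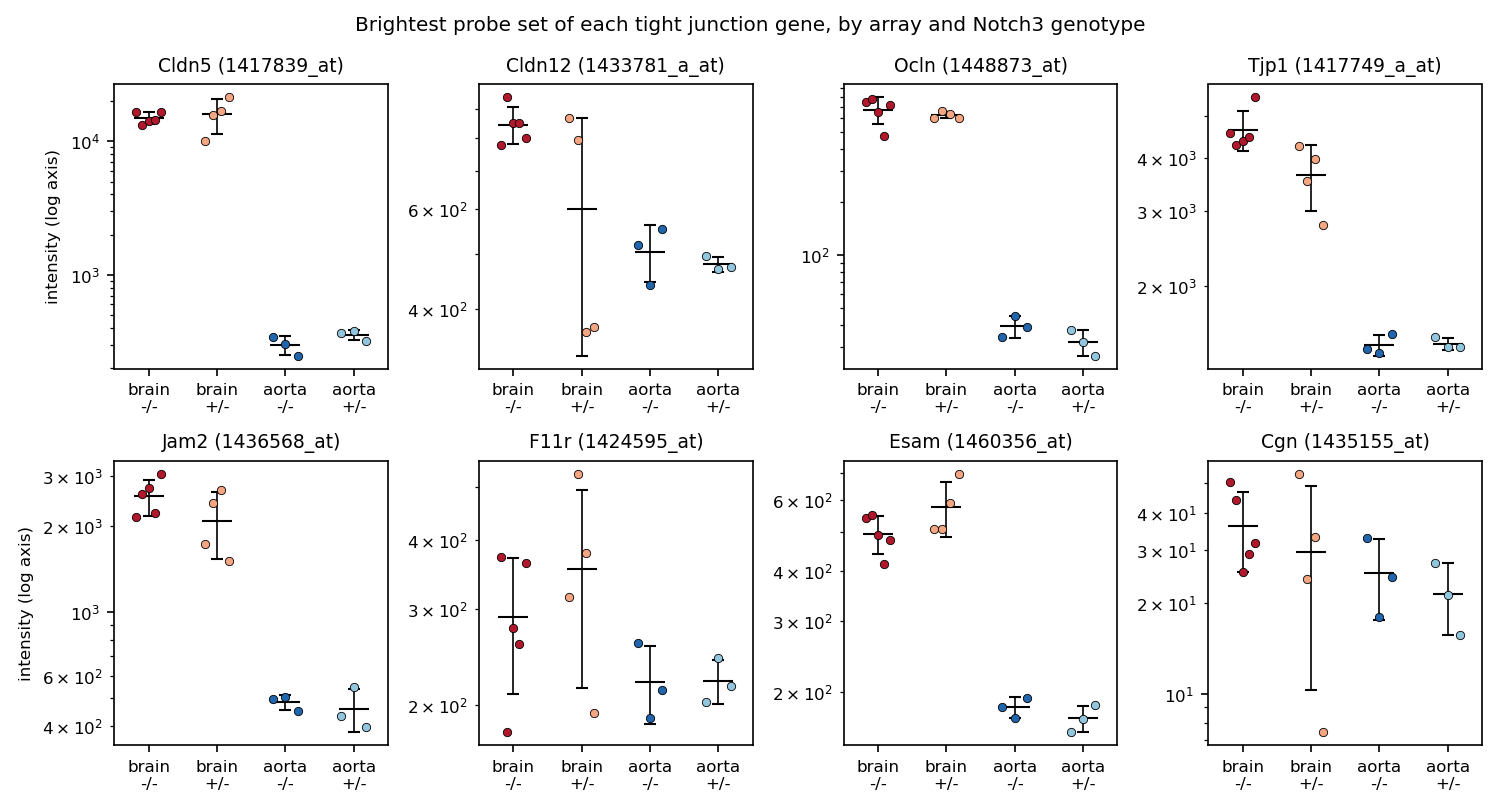
Intensity of the brightest probe set of each of the 8 tight junction genes on each array (log axis, its range set per gene), in the order brain Notch3 -/-, brain Notch3 +/-, aorta Notch3 -/- and aorta Notch3 +/-. Points are arrays, horizontal lines are group means and bars are 1 SD; the Cldn5 points of brain lie between 10089 and 21344 and those of aorta between 248 and 377.

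**Figure D2:**
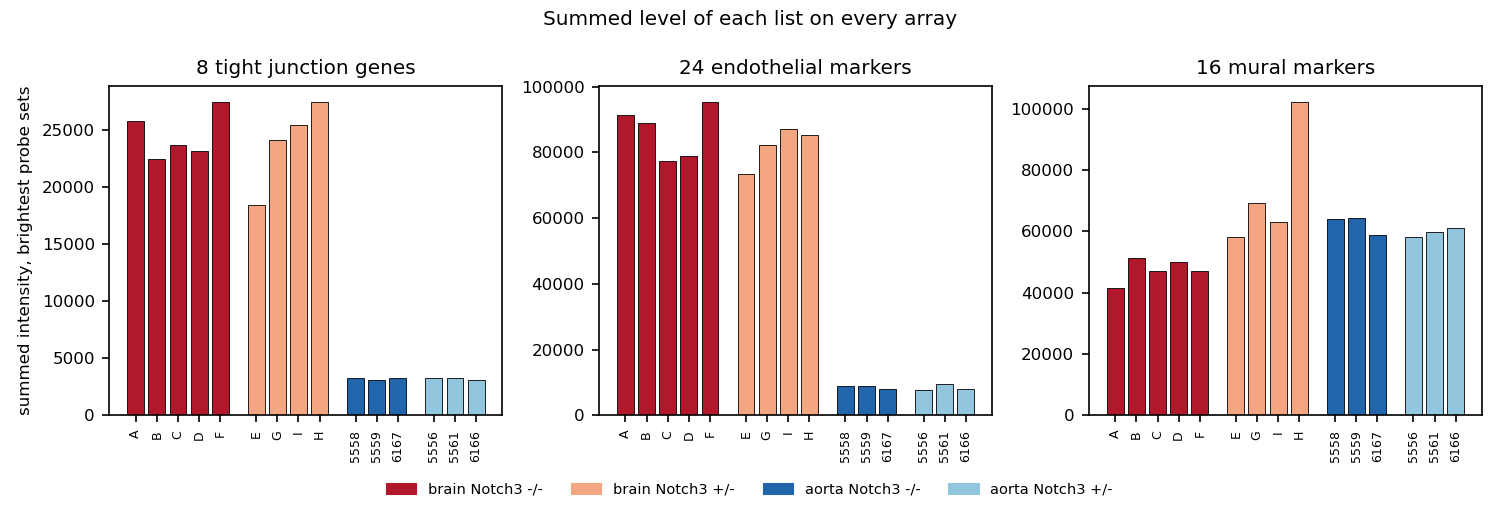
Summed intensity (linear axis from 0, brightest probe set of each gene) of the 8 tight junction genes, 24 endothelial markers and 16 mural markers on each array, with 1 bar per array and colours for the 4 groups. The tight junction and endothelial sums are higher on all brain arrays than on all aorta arrays, and the mural sum is not.

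The strand proteins Cldn5 and Ocln were far higher in brain cells than in aorta in both genotypes, and Cldn12 was not. Cldn5 is the claudin that dominates the strands of brain endothelium. It read 16593, 13182, 14323, 14507 and 16491 on the brain Notch3 -/- arrays and 10089, 15703, 16829 and 21344 on the brain Notch3 +/- arrays. In aorta it read 344, 304 and 248 on Notch3 -/- arrays and 364, 377 and 321 on Notch3 +/- arrays. All brain values therefore lay above all aorta values, while the genotypes overlapped within each tissue. Brain exceeded aorta 48-fold in Notch3 -/- mice (log2 5.58, SE 0.13, limma adjusted p = 2.2e-12) and 41.9-fold in Notch3 +/- mice (log2 5.39, SE 0.23, limma adjusted p = 3.28e-08). Differences and folds throughout are on the log2(value + 16) scale, which understates those of dim probe sets. By size of the difference Cldn5 stood at place 51 of 22519 probe sets tested in Notch3 -/- mice and at place 47 in Notch3 +/- mice.

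Ocln encodes occludin, a membrane-spanning strand protein that regulates the junction more than it builds it. Its brighter probe set (1448873_at) read 740.5, 774, 655, 478 and 719 on the brain Notch3 -/- arrays and 607, 662, 636 and 607 on the brain Notch3 +/- arrays. The aorta values were 33.8, 45, 38.7 on Notch3 -/- arrays and 37.2, 31.9 and 26.6 on Notch3 +/- arrays. Probe sets under a mean intensity of 42.1 in Notch3 -/- and 41.8 in Notch3 +/- mice were not tested between tissues. Between genotypes in aorta that level was 37.4. The aorta means of this probe set, 39.1 in Notch3 -/- and 31.9 in Notch3 +/-, lay under the levels for the tissue comparisons. Ocln thus entered them through its brain level alone, and its difference is given as a description, without a p. All brain values lay above all aorta values, but the size of the difference depended on the constant added before log2. In Notch3 -/- mice it was log2 3.63 with 16 added, 4.06 with 1 and 2.82 with 64, and in Notch3 +/- mice 3.75, 4.27 and 2.85. At the dimmer probe set (1440220_at), also near or under those levels in aorta, the difference was log2 2.86 and 2.37 with 16 added. The means of that probe set were 349 ± 117 in brain Notch3 -/- cells, 296 ± 94 in brain Notch3 +/- cells, 33.8 ± 13.7 in aorta Notch3 -/- and 42.2 ± 3.19 in aorta Notch3 +/-.

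Cldn12 encodes a claudin without the tail by which most claudins bind ZO proteins. Its brighter probe set (1433781_a_at) read 777, 944, 850.4, 849.7 and 802 on the brain Notch3 -/- arrays, against 868, 796, 364 and 372 on the brain Notch3 +/- arrays. Aorta explants gave 519, 441 and 553 on Notch3 -/- arrays and 496, 469.9 and 474 on Notch3 +/- arrays. The brain Notch3 +/- arrays thus split into a pair at the Notch3 -/- level (E and G) and a pair below all aorta arrays (I and H). Brain was 1.66-fold higher than aorta in Notch3 -/- mice (log2 0.73, SE 0.13, limma adjusted p = 2.06e-04), and the difference did not pass in Notch3 +/- mice (log2 0.20, SE 0.30, limma adjusted p = 0.594). Values at the dimmer probe set (1433782_at) went the other way. It averaged 56.6 ± 7.65 in brain Notch3 -/- cells and 70.3 ± 33.8 in brain Notch3 +/- cells, against 169 ± 5.71 in aorta Notch3 -/- and 174 ± 3.44 in aorta Notch3 +/-. That is a difference of log2 -1.35 in Notch3 -/- mice (limma adjusted p = 7.27e-06) and -1.25 in Notch3 +/- mice (limma adjusted p = 0.00828). A direction for Cldn12 between the tissues was therefore not settled by these probe sets, whose target sequences were not used here.

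Promoter sequence is shown for Cldn5, Ocln and Tjp1, a strand claudin, occludin and the main scaffold, since these were higher in brain cells in both genotypes. Each line gives the 250 bases before an annotated start from RefSeq (build GRCm38.p6), 5′ to 3′ on the strand of the gene. For Ocln it is the first of 2 windows listed. The Tjp1 window lies inside the gene, which spans 65296165 to 65527850, so it precedes an internal start and not the outermost one. Capitals mark GGGCGG (the GC box core) and CCAAT (the CCAAT box), searched on both strands.
Cldn5 (chr16:18776597-18776846, plus strand): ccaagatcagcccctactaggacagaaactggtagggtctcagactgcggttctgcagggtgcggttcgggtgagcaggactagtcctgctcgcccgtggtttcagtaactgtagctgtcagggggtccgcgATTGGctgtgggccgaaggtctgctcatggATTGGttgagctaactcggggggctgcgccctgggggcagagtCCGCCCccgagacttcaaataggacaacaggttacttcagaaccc
Ocln (chr13:100552719-100552968, minus strand): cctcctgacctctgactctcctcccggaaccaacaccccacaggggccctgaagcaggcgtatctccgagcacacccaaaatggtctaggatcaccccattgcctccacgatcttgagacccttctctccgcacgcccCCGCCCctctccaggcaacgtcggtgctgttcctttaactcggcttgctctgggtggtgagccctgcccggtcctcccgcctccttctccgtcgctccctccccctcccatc
Tjp1 (chr7:65371245-65371494, minus strand): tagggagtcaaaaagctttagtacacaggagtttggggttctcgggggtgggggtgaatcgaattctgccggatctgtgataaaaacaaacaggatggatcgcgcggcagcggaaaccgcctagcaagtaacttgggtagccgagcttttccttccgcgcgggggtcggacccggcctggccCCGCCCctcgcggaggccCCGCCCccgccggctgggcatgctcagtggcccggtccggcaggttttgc

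The Cldn5 window held 1 GC box and 2 CCAAT boxes, the Ocln window 1 GC box, and the Tjp1 window 2 GC boxes. Of 32851 mouse windows of the same length, 32.7% held GGGCGG and 33.8% held CCAAT, so these matches are common. TGGGAA, the core letters bound by RBPJ, the DNA-binding partner of Notch, occurred in none of the windows of the 6 member genes that matched the table and in 21.6% of all windows. The absence of these letters from a window says nothing about the factor elsewhere in the gene, and Jam2 and Esam were not matched.

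The adhesion molecules Jam2 and Esam were also higher in brain cells, and F11r was not past the threshold in either genotype. Jam2 encodes JAM-B, an immunoglobulin-type molecule of endothelial junctions that binds JAM-C on the next cell. Its brightest probe set (1436568_at) read 2144, 2579, 2708, 2217 and 3042 on the brain Notch3 -/- arrays and 1726, 2406, 2666 and 1513 on the brain Notch3 +/- arrays. In aorta the values were 496, 504 and 452 on Notch3 -/- arrays and 434, 547 and 396 on Notch3 +/- arrays. The tissues did not overlap and the genotypes did. Brain was 5.07-fold higher in Notch3 -/- mice (log2 2.34, SE 0.14, limma adjusted p = 7.2e-09) and 4.33-fold higher in Notch3 +/- mice (log2 2.11, SE 0.22, limma adjusted p = 1.66e-05). The next 3 Jam2 probe sets were higher in brain as well, by log2 1.93, 1.15 and 1.41 in Notch3 -/- mice and by 1.79, 1.09 and 1.13 in Notch3 +/- mice, all past the threshold. The last of these (1431417_at) was under the filter in aorta, and the dimmest Jam2 probe set (1431416_a_at, 1.41 to 33.4 over all arrays) was not tested anywhere.

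Esam encodes an adhesion molecule found on endothelial cells and platelets. It read 541, 550.2, 491, 416 and 477 on the brain Notch3 -/- arrays and 509, 509, 589 and 698 on the brain Notch3 +/- arrays. In aorta it read 184, 172 and 193 on Notch3 -/- arrays and 159, 171 and 185 on Notch3 +/- arrays. All brain arrays were above all aorta arrays, 2.56-fold in Notch3 -/- mice (log2 1.36, SE 0.14, limma adjusted p = 1.3e-06) and 3.14-fold in Notch3 +/- mice (log2 1.65, SE 0.17, limma adjusted p = 1.51e-05).

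F11r encodes JAM-A, which epithelia, endothelium, platelets and leukocytes all carry. Its brighter probe set (1424595_at) read 373, 179, 276, 259 and 364 on the brain Notch3 -/- arrays and 315, 528, 378 and 194 on the brain Notch3 +/- arrays. The aorta arrays gave 259, 189 and 213 on Notch3 -/- arrays and 203, 244 and 217 on Notch3 +/- arrays. All 4 groups overlapped. The brain minus aorta difference was log2 0.34 in Notch3 -/- mice (SE 0.21, limma adjusted p = 0.18) and 0.56 in Notch3 +/- mice (SE 0.27, limma adjusted p = 0.108). One array decided each call, since the difference passed without brain Notch3 -/- replicate B (log2 0.49, limma adjusted p = 0.0255) and without brain Notch3 +/- replicate H (log2 0.81, limma adjusted p = 0.00725). The other F11r probe set (1436374_x_at), of a design that can share probes with other transcripts, stayed between 3.47 and 50.1 and was not tested.

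Of the cytoplasmic scaffolds, Tjp1 was higher in brain cells and Cgn was near the floor everywhere. Tjp1 encodes ZO-1, the scaffold that holds claudins, occludin and JAM proteins to actin and that many cell types outside tight junctions also make. It read 4577, 4270.2, 4377, 4479 and 5534 on the brain Notch3 -/- arrays, against 4251, 3527, 3975 and 2786 on the brain Notch3 +/- arrays. Aorta arrays read 1426, 1390.3 and 1546 on Notch3 -/- arrays and 1519, 1437 and 1435 on Notch3 +/- arrays. Brain was 3.16-fold higher in Notch3 -/- mice (log2 1.66, SE 0.12, limma adjusted p = 6.22e-08) and 2.44-fold higher in Notch3 +/- mice (log2 1.29, SE 0.17, limma adjusted p = 1.16e-04). Cgn encodes cingulin, a plaque protein that binds ZO-1 and myosin and is best known from epithelia. Its brighter probe set (1435155_at) read 50.6, 43.9, 25.3, 29.1 and 31.7 in brain Notch3 -/- cells and 53.8, 24, 33.1 and 7.45 in brain Notch3 +/- cells. In aorta the readings were 33, 18 and 24.4 on Notch3 -/- arrays and 27.2, 21.3 and 15.7 on Notch3 +/- arrays. Both Cgn probe sets had mean intensities under the filter in every comparison, so Cgn was not tested.

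**Figure D3:**
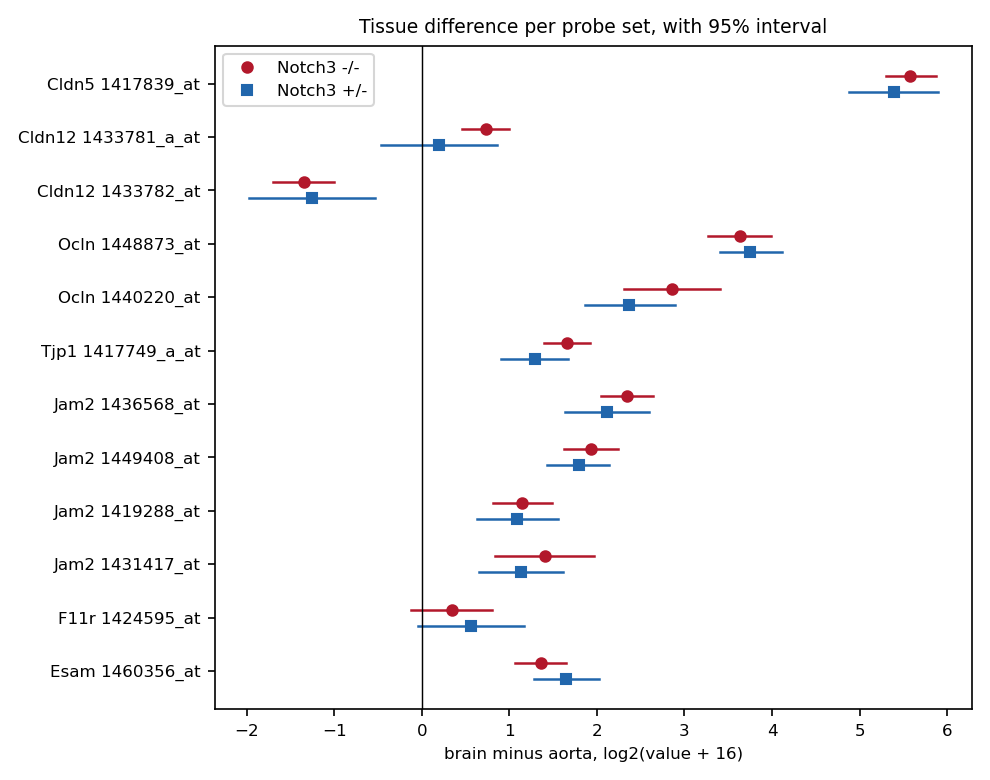
Brain minus aorta difference (x axis, log2(value + 16)) of the 12 member probe sets tested, with 95% intervals, in Notch3 -/- mice (circles) and Notch3 +/- mice (squares). Cldn5 stands farthest to the right at 5.58 and 5.39, and the dimmer Cldn12 probe set is the one to the left of 0, at -1.35 and -1.25.

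Counted over probe sets, 10 of the 16 were higher in brain cells and 1 was lower in Notch3 -/- mice, 1 did not pass and 4 were not tested. Both Ocln probe sets and the Jam2 probe set 1431417_at are among those higher and had passed the filter through brain alone. Over all probe sets tested in that comparison 33.6% were higher and 28.9% lower, 62.5% in all. In Notch3 +/- mice 9 were higher, 1 was lower, 2 did not pass and 4 were not tested, with a background of 26.5% higher and 25.2% lower, 51.8% in all. Taken at the brightest probe set of each gene, the median difference of the 8 genes was log2 1.51 in Notch3 -/- mice and 1.47 in Notch3 +/- mice. Over all probe sets, dim ones included, the median was 0.095 and 0.097, and over those tested 0.107 and 0.072. The 8 genes include Cgn, which was not tested, at log2 0.33 and 0.19. The 24 endothelial markers had medians of 2.02 and 2.36, with 22 higher and 2 lower in each genotype. Of these 24, 3 were under the filter in aorta, so their counts are a description. Slco1a4, for example, averaged 12.7 ± 4.16 in aorta Notch3 -/- and 16.1 ± 3.85 in aorta Notch3 +/-. Tissue goes together with sorting and with the RNA extraction, which used Trizol in aorta only, and these cannot be told apart. The 2 tissue comparisons share no arrays with each other, but each shares its arrays with the genotype comparisons.

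Between genotypes in brain cells, no tight junction gene passed the test after adjustment over all probe sets. Tjp1 and the brighter Cldn12 probe set had an unadjusted p under 0.05, with higher means without Notch3, and the values of Cldn5, Ocln, Jam2, F11r and Esam overlapped between the genotypes. Of the 16 member probe sets 12 were tested by limma, 0 passed 5%, and 2 had an unadjusted p under 0.05, with adjusted p between 0.464 and 0.993. The background was 0.142% of 22519 probe sets past 5% and 9.39% with an unadjusted p under 0.05.

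Tjp1 averaged 4647 ± 509 (n = 5) in brain Notch3 -/- cells, against 3635 ± 639.6 (n = 4) in brain Notch3 +/- cells. Each Notch3 -/- array was above each Notch3 +/- array, though the lowest of the one group, 4270.2, and the highest of the other, 4251, nearly met. It was the only member probe set whose brain genotypes did not overlap, and 3.3% of all probe sets tested did not overlap in either direction. The difference was 1.29-fold (log2 0.36, 95% interval 0.02 to 0.71, unadjusted p = 0.0401, limma adjusted p = 0.508). Without the highest Notch3 -/- array, replicate F, it was log2 0.30 (limma adjusted p = 0.666), and without the lowest Notch3 +/- array, replicate H, it was 0.24 (limma adjusted p = 0.659). With the endothelial marker level of each array as a covariate it was log2 0.38.

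Cldn12 at its brighter probe set averaged 845 ± 64 in brain Notch3 -/- cells, against 600.1 ± 269 in brain Notch3 +/- cells. The groups overlapped, and the SD of the Notch3 +/- arrays reflects the low values of I and H described above. The difference was 1.51-fold (log2 0.59, 95% interval 0.07 to 1.11, unadjusted p = 0.0287, limma adjusted p = 0.464). It fell to log2 0.39 without replicate I and to 0.40 without replicate H, with limma adjusted p of 0.646 and 0.66. With the endothelial marker level as a covariate it was log2 0.48. Cldn12 at its dimmer probe set had log2 -0.14 (95% interval -0.75 to 0.46).

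Cldn5 averaged 15019 ± 1480.1 in brain Notch3 -/- cells and 15991 ± 4629 in brain Notch3 +/- cells. The Notch3 +/- arrays held both the lowest and the highest of the 9 values, in replicates E and H. The difference was log2 -0.05 (95% interval -0.47 to 0.38, limma adjusted p = 0.964). A difference within this interval is not excluded by these arrays, and the interval is not a limit of detection. Its sign turned under quantile normalization (0.04), array weights (0.02) and the endothelial covariate (0.03). Ocln averaged 673 ± 118 and 628 ± 26.4 in the same order of groups, with log2 0.08 (95% interval -0.27 to 0.43, limma adjusted p = 0.914). The low Ocln value of 478 belonged to Notch3 -/- replicate D, which also had the lowest Esam value of the 9 brain arrays.

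Jam2 averaged 2538 ± 368 in brain Notch3 -/- cells and 2078 ± 547 in brain Notch3 +/- cells at its brightest probe set (log2 0.31, 95% interval -0.09 to 0.72, limma adjusted p = 0.628). With the endothelial marker level as a covariate the Jam2 difference at that probe set was log2 0.40. The other 3 tested Jam2 probe sets gave log2 0.16, 0.01 and 0.11 without it. Esam averaged 495 ± 54.1 and 576 ± 89.4 in the same order (log2 -0.21, 95% interval -0.54 to 0.12, limma adjusted p = 0.704). F11r averaged 290.2 ± 80.4 and 354 ± 139 (log2 -0.23, 95% interval -0.80 to 0.33, limma adjusted p = 0.821). The median over the 8 genes was log2 0.18, against -0.003 over all probe sets and 0.011 over those tested, with 5 genes above 0 and 3 below. Cgn is among the 5 above 0, at log2 0.28, though its intensity was under the filter and it was not tested. The mural marker sum was lower and the fibroblast sum mostly higher in brain Notch3 -/- arrays (9443 to 14762, against 6231 to 9803), and their part in these differences was not tested.

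**Figure D4:**
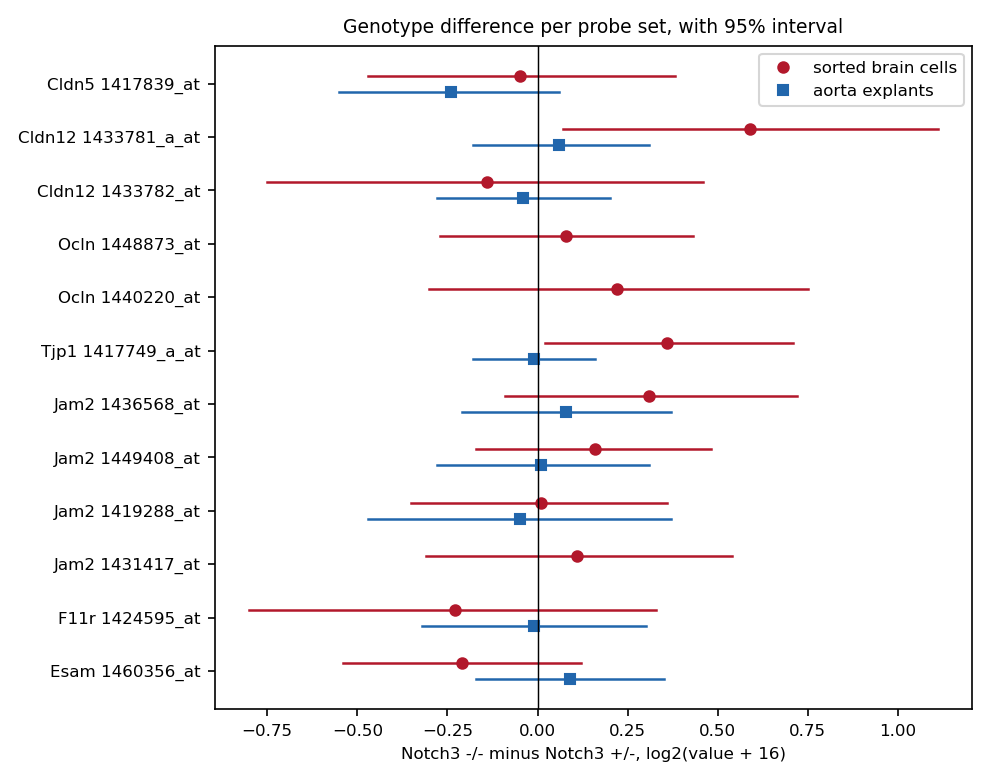
Notch3 -/- minus Notch3 +/- difference (x axis, log2(value + 16)) of the member probe sets tested, with 95% intervals, in sorted brain cells (circles, 12 probe sets) and aorta explants (squares, 9 probe sets). The intervals of Tjp1 and of the brighter Cldn12 probe set in brain lie above 0 before adjustment, and all others include 0.

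In aorta no tight junction gene passed the test between genotypes. Of the 16 probe sets 9 were tested by limma, 0 passed 5% and 0 had an unadjusted p under 0.05, with an adjusted p of 0.999 for each, while 0% of all probe sets tested passed and 4.35% had an unadjusted p under 0.05. Cldn5 had the lowest p, with 299 ± 48.3 in aorta Notch3 -/- against 354 ± 29.1 in aorta Notch3 +/- (n = 3 each; log2 -0.24, 95% interval -0.55 to 0.06, unadjusted p = 0.106, limma adjusted p = 0.999). Tjp1 averaged 1454 ± 81.5 in aorta Notch3 -/- and 1464 ± 48.1 in aorta Notch3 +/- (log2 -0.01, 95% interval -0.18 to 0.16). Cldn12 averaged 504 ± 57.2 and 480.0 ± 14.4 at its brighter probe set in the same order (log2 0.06), and Jam2 484 ± 28.1 and 459 ± 78.3 at its brightest (log2 0.08). Esam averaged 183 ± 10.6 and 172 ± 13 (log2 0.09), and F11r 221 ± 35.5 and 221 ± 20.7 (log2 -0.01). All 9 tested probe sets had overlapping genotypes in aorta, where 9.47% of all probe sets tested did not overlap. Ocln was not tested, with 39.1 ± 5.57 in aorta Notch3 -/- and 31.9 ± 5.29 in aorta Notch3 +/-.

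Whether the genotype difference itself differed between the tissues was tested as an interaction over all 15 arrays. Of the 12 member probe sets tested by limma 0 passed 5% and 0 had an unadjusted p under 0.05, with an adjusted p of 0.997 for each, while 0.0178% of all probe sets tested passed 5% and 4.76% had an unadjusted p under 0.05. Tjp1 had the lowest p, with a brain difference that exceeded the aorta difference by log2 0.37 (95% interval -0.05 to 0.80, unadjusted p = 0.0805). The value for the brighter Cldn12 probe set was 0.53 (95% interval -0.17 to 1.22). For Cldn5 it was 0.20 (-0.37 to 0.76), and for Esam -0.29 (-0.72 to 0.13).

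**Figure D5:**
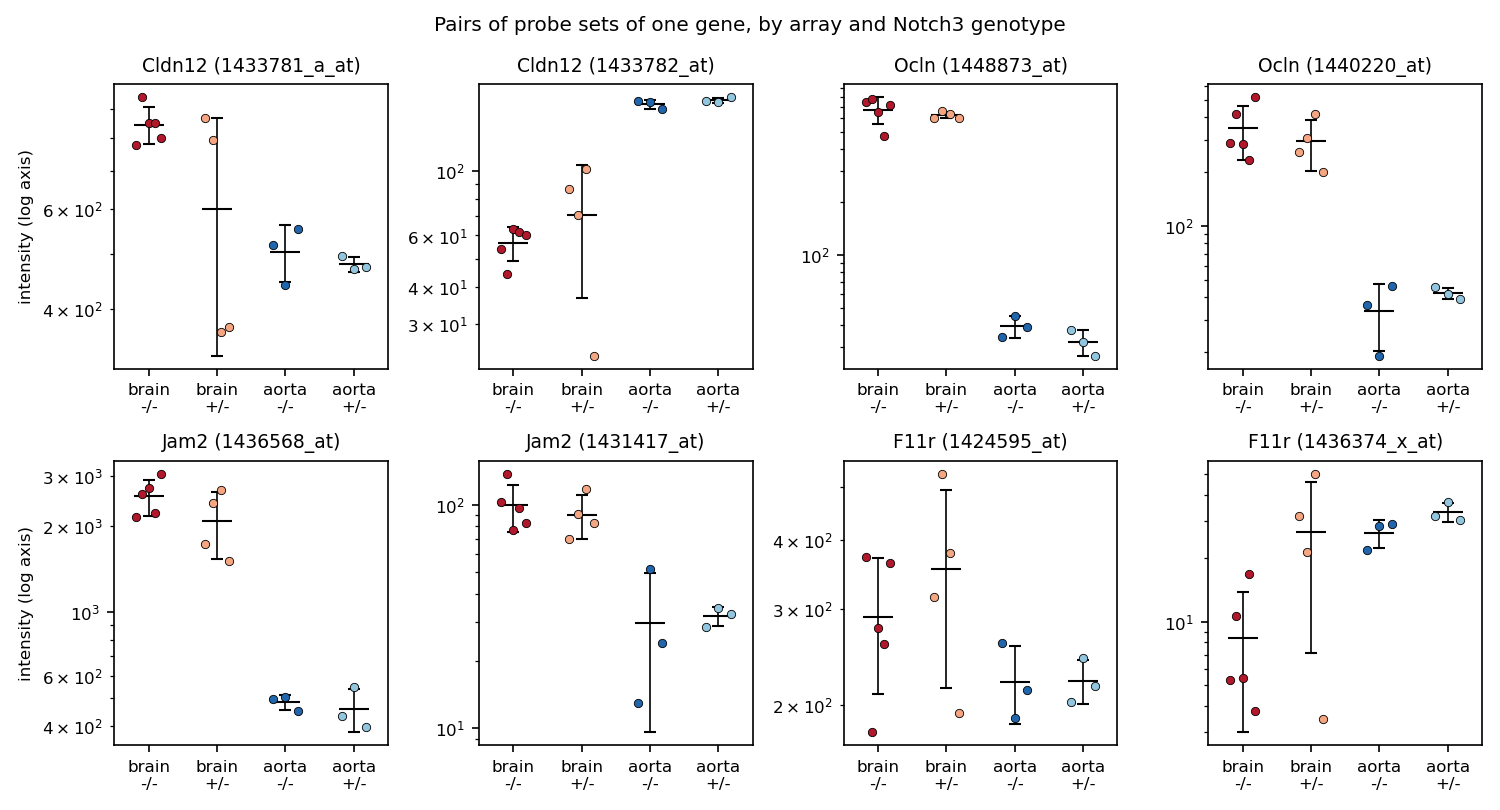
Intensity on each array (log axis, its range set per panel) of both probe sets of Cldn12, Ocln and F11r and of 2 Jam2 probe sets, in the order brain Notch3 -/-, brain Notch3 +/-, aorta Notch3 -/- and aorta Notch3 +/-, with group means and 1 SD. The Ocln and Jam2 pairs are higher in brain at both probe sets, and the Cldn12 pair is not, with 56.6 ± 7.65 in brain Notch3 -/- cells against 169 ± 5.71 in aorta Notch3 -/- at 1433782_at.

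The other tight junction genes went both ways between the tissues, and none passed the test between genotypes. Of a list of 47 such genes 44 were on the array. In Notch3 -/- mice 14 were higher and 7 lower in brain cells among 28 tested, against 33.6% higher and 28.9% lower over all probe sets, and the list's median was log2 0.42 against 0.095. In Notch3 +/- mice 15 were higher and 5 lower among 27 tested, against 26.5% and 25.2%, with a median of 0.50 against 0.097. Some of these genes passed the filter through their brain level alone, so the counts are a description. Lsr, an angulin of the contacts where 3 cells meet, is one of them, with 293 ± 68.7 in brain Notch3 -/- cells and 428 ± 144 in brain Notch3 +/- cells, against 4.45 ± 1.22 in aorta Notch3 -/- and 11.4 ± 12.9 in aorta Notch3 +/-. Cldn2, a pore-forming claudin of leaky epithelia such as choroid plexus, is another, with 256 ± 58.5 and 284 ± 155 in brain against 10.8 ± 6.11 and 15.2 ± 13.6 in aorta, in the same order of genotypes. Ildr2, another angulin, was higher in brain by log2 3.06 in Notch3 -/- mice (limma adjusted p = 1.71e-08) and by 2.50 in Notch3 +/- mice (limma adjusted p = 1.04e-05). Sympk, or symplekin, a plaque protein that also acts in mRNA processing, averaged 327 ± 89.9 in brain Notch3 +/- cells against 41.7 ± 9.74, near the filter, in aorta Notch3 +/- (log2 2.55). Cldn2 is also in the list of choroid plexus markers, whose summed intensity was 20960 to 30256 in brain Notch3 -/- arrays and 25932 to 47313 in brain Notch3 +/- arrays, against 879 to 1225 in aorta Notch3 -/- and 822 to 1237 in aorta Notch3 +/-. Their part in the levels of the tight junction genes was not tested.

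Adherens junctions are the cadherin-based contacts that lie next to tight junctions in endothelium. Of 18 such genes 17 were tested, and in Notch3 -/- mice 10 were higher and 5 lower in brain cells, in Notch3 +/- mice 8 higher and 4 lower, beside the same background. Their medians were log2 0.44 and 0.49. Pdlim1, a PDZ-LIM protein of the actin cytoskeleton, was 7.65-fold lower in brain in Notch3 -/- mice (log2 -2.94) and 5.61-fold lower in Notch3 +/- mice (log2 -2.49). Lmo7, an actin-linked protein of epithelial adherens junctions, was higher (log2 2.44 and 2.25), and Cdh2, or N-cadherin, had 194 ± 39.5 and 213 ± 84.6 in brain against 38.3 ± 10.1 and 37.9 ± 10.6 in aorta, under the levels of 42.1 and 41.8 that the tissue comparisons required. Pecam1, an adhesion molecule of all endothelium, was lower in brain at its brightest probe set (log2 -1.96 and -1.79), against the direction of most endothelial markers.

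Between genotypes in brain, 0 of 31 other tight junction genes tested and 0 of 17 adherens junction genes passed 5% in limma, with medians of log2 -0.09 and -0.02. Over all probe sets tested 0.142% passed and 9.39% had an unadjusted p under 0.05. Jam3, which encodes JAM-C, the partner of JAM-B, and Pdlim1 were the 2 genes of these lists with an unadjusted p under 0.05. Jam3 averaged 216 ± 45 in brain Notch3 -/- cells against 339 ± 53.3 in brain Notch3 +/- cells (log2 -0.62, SE 0.18, unadjusted p = 0.00357, limma adjusted p = 0.299). Pdlim1 averaged 318 ± 62.9 against 517 ± 143 (log2 -0.66, SE 0.20, unadjusted p = 0.00517, limma adjusted p = 0.324). For Jam3 the brain genotype difference minus the aorta one was log2 -0.75 (unadjusted p = 0.00438), which did not pass (limma adjusted p = 0.752). In aorta 0 of 21 and 0 of 17 passed in limma, while 0% of all probe sets tested passed and 4.35% had an unadjusted p under 0.05. Ptprm, a phosphatase that binds cadherin complexes, was the 1 gene with an unadjusted p under 0.05. It averaged 421 ± 16.4 in aorta Notch3 -/- against 512 ± 26 in aorta Notch3 +/- (log2 -0.27, unadjusted p = 0.017, limma adjusted p = 0.999).

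Across the 9 brain arrays, with the mean of each genotype taken out, the genes whose values ran most like Cldn5 were 5730405A17Rik (Pearson r = 0.964), Hexim2 (0.96), Ppp1r16a (0.958), Mfsd3 (0.957) and Clptm1 (0.955), of 12049 compared. None of these is a tight junction gene. The endothelial markers had a median r of 0.32 with Cldn5, against 0 over all genes, and ran both ways, with Flt1 highest at 0.765, Cdh5 at -0.51 and Slco1a4, an endothelial transporter, lowest at -0.527. Of the other members Esam had 0.569, Ocln 0.069, Jam2 -0.001, F11r -0.03, Tjp1 -0.524 and Cldn12 -0.791. All these genes share the same 9 arrays and their scaling, so these values only describe the arrays.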

How the data were processed

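RNA of sorted brain cells and aorta explants was hybridised to 15 arrays. The deposited table holds the intensity of each probe set on a linear scale, which the authors scaled to a target of 150 per array, per the labels' series design, and the trimmed mean was 150 on each array. How probes were summarised and whether background was corrected or detection called is not stated in the labels or files. The number of arrays limits the precision.

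The members and gene lists were chosen with earlier results of these data known. Symbols came from the platform annotation, updated through a RefSeq gene table (34958 probe sets with 1 symbol, 932 with several, 9211 with none). After 64 control probe sets were left out, those not below the median by mean log2 value over the compared arrays (22519 probe sets per comparison) went into limma 3.58.1 in R 4.3.3 (lmFit and eBayes with an intensity trend on log2(value + 16), two-sided, Benjamini-Hochberg at 5%). The fits were tested on simulated data. Named were the 8 members at every probe set, led by the brightest, up to 4 genes of each junction list per comparison (largest difference among those past 5%, otherwise smallest p; the text gives the first of these), the 5 genes most like Cldn5, Notch3 and a few endothelial markers. Flt1 and Slco1a4 were named after their values were seen. Replicates correlated at r of 0.932 to 0.981, and shared at most 0.00665% of their values, so no array was a copy of another. Every array was treated as 1 replicate, though these checks do not tell whether the aorta arrays came from separate mice. Alternatives were other pseudocounts, no filter, quantile or 75th percentile scaling, no trend, array weights, all arrays in 1 fit, an endothelial covariate, a block for the aorta name series, the mean over a gene's probe sets and each array left out. Brain replicate letters A, B, C, D and F were all Notch3 -/- and E, G, H and I all Notch3 +/-. The labels do not say what the letters mean, and no batch was tested in brain.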

Additional observations from a re-analysis of the deposited data

Results flagged for a closer look

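Of 32 checks of members within the brain groups, each asking whether 1 array lay far from the rest of its group, 2 were met, and chance flags about 1 in 20 groups. Tjp1 in brain Notch3 -/- replicate F read 5534.3, while the other 4 arrays of the group read 4270.2 to 4576.95, so that the gap took 0.733 of the range. Cgn at its dimmer probe set (1430329_at) read 11.43 in the same replicate F, while the others read 3.72 to 5.62 (0.722 of the range), all far under the level that was tested. Replicate F also had the highest Jam2 value of its group, 3042.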

How the results depend on the processing

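The count of tight junction probe sets past 5% stayed at 0 in the brain, aorta and interaction comparisons of genotype under every setting run. Between tissues it moved by at most 1 probe set, from 11 to 12 in Notch3 -/- mice (no filter, or without replicate B) and from 10 to 11 in Notch3 +/- mice (array weights, or without replicate H). These tissue counts include both Ocln probe sets and Jam2 at 1431417_at, which passed the filter through brain alone. For those probe sets the counts are a description. Signs turned for small differences. For Cldn5 in brain genotypes the values were 0.04 (quantile normalization), 0.02 (array weights) and 0.03 (endothelial covariate), and -0.25 to 0.11 with 1 array left out. In aorta, Tjp1 was 0.01 and F11r 0 with 75th percentile centring, F11r 0.03 with array weights and 0.07 with the endothelial covariate, Jam2 at 1419288_at 0.06 with that covariate, and Jam2 -0.05 as the mean over its probe sets. That mean also gave 0.18 for Ocln in the interaction, -0.31 (limma adjusted p = 0.0187) and -0.52 for Cldn12 between tissues in Notch3 -/- and Notch3 +/- mice, and -0.24 for F11r between tissues in Notch3 -/- mice, since the dimmer probe sets weigh equally there. F11r between tissues in Notch3 +/- mice passed with array weights (0.79, limma adjusted p = 0.00677). With 1 array left out, brain genotype ranges that crossed 0 were -0.49 to 0.04 (Cldn12 at 1433782_at) and -0.09 to 0.09 (Jam2 at 1419288_at). In aorta they were 0 to 0.15 (Cldn12 at 1433781_a_at), -0.05 to 0.02 (Tjp1), -0.01 to 0.21, -0.07 to 0.11 and -0.19 to 0.11 (Jam2 at 1436568_at, 1449408_at and 1419288_at) and -0.13 to 0.09 (F11r). In the interaction they were -0.01 to 0.35 (Cldn5), -0.44 to 0.08 (Cldn12 at 1433782_at), -0.1 to 0.2 and 0 to 0.61 (Jam2 at 1419288_at and 1431417_at). Between tissues in Notch3 +/- mice Cldn12 at 1433781_a_at ran from -0.01 to 0.4. The cause of these turns was not tested. No paired analysis was possible because the replicate names are not shared between groups. Probe sets with intensities near or under the filter, among them both of Cgn and, in aorta, both of Ocln, limit what could be measured.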
